A study of Mus musculus with 6 samples.

Results

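The phosphodiesterase 4 (PDE4) family has 4 genes, Pde4a, Pde4b, Pde4c and Pde4d, among the 21883 protein-coding genes on the main chromosomes of the mouse annotation. Their Runx1 peaks were taken as all peaks that met the RefSeq gene body or a flank of 10 kb at either end. By this rule the family held 34 of 25052 peaks in sham, 71 of 56316 at day 14 (D14) and 14 of 15009 at day 56 (D56). The genes were chosen from family membership and from peaks already noted in these lists, namely D14 gains at Pde4d and a sham-only peak at Pde4b. The peak numbers of the family are therefore a description.

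Runx1 is a DNA-binding transcription factor of the RUNX family. It was mapped by chromatin immunoprecipitation and sequencing (ChIP-seq) with the antibody Abcam ab23980 in GFP+ lung fibroblasts. All mice, sham mice included, carried Col1a2-CreERT2 and the mTmG reporter, so the Cre driver is the promoter of the type I collagen gene Col1a2 and green cells are those in which it was active when Cre was switched on. The 3 conditions were sham injury, bleomycin given into the trachea 14 days before (D14) and the same 56 days before (D56). This drug damages the lung and is a standard way to bring on fibrosis in mice. Each condition had 1 ChIP library and 1 input library, so no difference between conditions has a replicate check and no p-value is given. The sources used here give no strain background, no age and no number of mice behind a library.

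PDE4 enzymes break down cyclic AMP (cAMP), the second messenger made by adenylyl cyclases when a Gs-coupled receptor is active, and so end signalling through protein kinase A (PKA) and EPAC. Each PDE4 gene makes long and short isoforms from several promoters, and anchoring proteins hold the enzymes at particular places in the cell. In lung fibroblasts cAMP opposes activation to myofibroblasts, and PDE4 inhibitors such as roflumilast and the PDE4B-preferring nerandomilast have been developed against inflammatory and fibrotic lung disease.

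RefSeq (build GRCm38.p6) gives 9 promoter windows for the family, 3 at Pde4a, 4 at Pde4b, 1 at Pde4c and 1 at Pde4d, all on the plus strand. The 4 printed here are the 250 bases before the start for the windows in which a D14 peak covered bases of that stretch and for the Pde4c window, which holds a RUNX motif and no peak. Capitals mark the bases inside the D14 peak in the Pde4a and Pde4b sequences, and the RUNX letters TGTGGT in the Pde4c sequence. The sequences read 5′ to 3′.
Pde4a, chr9:21165464-21165713, plus strand: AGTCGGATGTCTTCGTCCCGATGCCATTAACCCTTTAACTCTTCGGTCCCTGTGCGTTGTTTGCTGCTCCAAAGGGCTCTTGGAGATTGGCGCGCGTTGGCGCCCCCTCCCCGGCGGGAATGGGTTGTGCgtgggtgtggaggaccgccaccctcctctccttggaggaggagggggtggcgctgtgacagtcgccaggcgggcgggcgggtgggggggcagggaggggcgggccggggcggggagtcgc
Pde4a, chr9:21183851-21184100, plus strand: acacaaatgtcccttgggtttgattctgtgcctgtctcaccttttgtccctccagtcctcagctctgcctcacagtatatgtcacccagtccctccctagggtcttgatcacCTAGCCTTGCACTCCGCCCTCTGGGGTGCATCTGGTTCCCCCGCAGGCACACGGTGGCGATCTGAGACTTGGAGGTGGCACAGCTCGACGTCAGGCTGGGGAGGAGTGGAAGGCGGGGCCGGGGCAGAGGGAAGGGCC
Pde4b, chr4:102569810-102570059, plus strand: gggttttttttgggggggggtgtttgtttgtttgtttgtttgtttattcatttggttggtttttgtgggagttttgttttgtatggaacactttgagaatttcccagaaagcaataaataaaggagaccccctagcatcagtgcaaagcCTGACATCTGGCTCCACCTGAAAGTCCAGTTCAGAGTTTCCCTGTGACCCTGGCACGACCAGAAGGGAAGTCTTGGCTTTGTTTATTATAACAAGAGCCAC
Pde4c, chr8:70723814-70724063, plus strand: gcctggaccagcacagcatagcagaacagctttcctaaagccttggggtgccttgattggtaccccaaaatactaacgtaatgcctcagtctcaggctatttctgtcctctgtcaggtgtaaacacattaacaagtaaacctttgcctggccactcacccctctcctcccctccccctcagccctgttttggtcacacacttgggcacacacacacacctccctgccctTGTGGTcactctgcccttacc

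Of these 9 windows, which run from 250 bases before to 50 after the start, peaks met 2 in sham, 3 in D14 and 0 in D56. Over 21237 protein-coding promoter windows, the share met was 43.2% in sham, 53.4% in D14 and 37.3% in D56. The D14 peak covered 130 of the 250 printed bases at the upstream Pde4a start, 138 at the internal Pde4a start and 101 at the Pde4b start. The sham peak covered 42 bases at the upstream Pde4a start and 147 at the Pde4b start. The RUNX letters TGTGGT, searched on both strands in the 250 bases before each start, were found in 3 of the 9 windows. These were the Pde4c window, the third Pde4a window at chr9:21196455-21196704 and the third Pde4b window at chr4:102587308-102587557, and none of them was met by a peak in any library. The same letters were in 12.4% of the 21237 windows. The AP-1 letters TGANTCA were in 0 of the 9 windows, against 6.14% of all windows, and the cAMP response element TGACGTCA was in 0, against 1.93%. A match or its absence in these windows is only a description of the letters.

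All 4 genes had at least 1 peak in every library. For scale, 60.3% of all protein-coding genes had a peak within 10 kb in sham, 73.3% in D14 and 53.7% in D56. The members differed in the direction in which their peak number differed from sham. Pde4d, the longest of them at 1301.8 kb, had 9 peaks in sham, 35 in D14 and 2 in D56. Pde4b, 519.9 kb long, had 11 peaks in sham, 7 in D14 and 3 in D56. Pde4c, 27.4 kb long, had 11 peaks in sham, 21 in D14 and 8 in D56. Pde4a, 47.5 kb long, had 3 peaks in sham, 8 in D14 and 1 in D56. Pde4b was the member with fewer peaks at D14 than in sham, which held for 3.25% of the 16069 protein-coding genes with a peak in either library. The other members had more peaks at D14 than in sham, as did 69.9% of those genes.

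**Figure D1:**
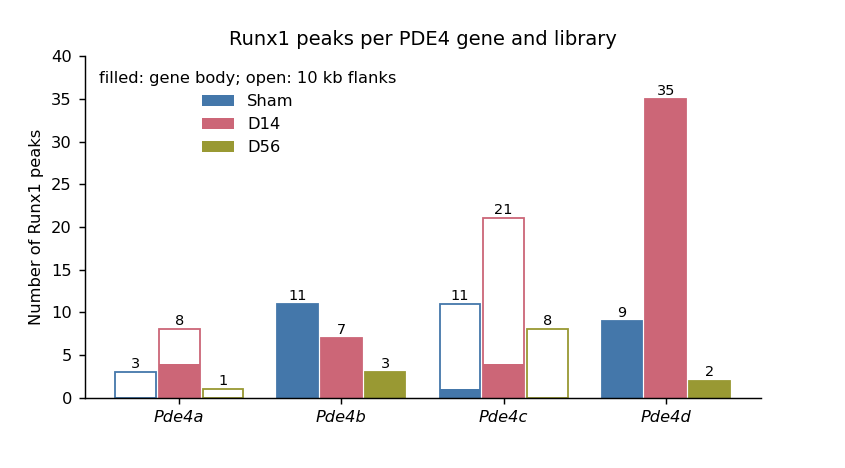
Number of Runx1 peaks (vertical axis) at each PDE4 gene (horizontal axis) in the sham, D14 and D56 libraries; the filled part of a bar counts peaks in the gene body and the open part peaks in the 10 kb flanks. Pde4d had 35 peaks at D14 against 9 in sham, Pde4b had 7 against 11, and most peaks of Pde4c lay in its flanks.

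The libraries differed in depth. Input tags followed the order of the list lengths, while D56 had slightly more ChIP tags than sham and fewer peaks. The ChIP libraries held 48816721 tags in sham, 78744701 in D14 and 49669125 in D56, and their inputs 39609538, 49312043 and 19949187. When each list was limited to its 15009 strongest peaks by p-value, the family had 14 peaks in sham, 7 in D14 and 14 in D56. The lowest −log10 p kept was then 12.8 in sham and 35.8 in D14, and the D56 list was kept whole. Peaks in these lists are therefore not cut at a common strength. Under the limit of 15009 peaks Pde4d had 2 peaks at D14 and 3 in sham, and Pde4c 2 and 4, so their excess at D14 was not kept. Pde4b then had 2 peaks at D14 and 7 in sham.

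Peaks of the 3 libraries that overlapped by 1 bp or more were joined into regions. The family held 70 of the 57567 regions in the genome. Of these, 37 were called at D14 alone, 16 in sham and at D14, 10 in all 3 libraries and 7 in sham alone. Over the genome, 56.8% of regions were called at D14 alone, 14.9% in sham and at D14, 23.9% in all 3 libraries and 3.51% in sham alone. The members divided these classes unevenly. Pde4d held 26 of the 37 D14-only regions and Pde4b held 5 of the 7 sham-only regions.

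**Figure D2:**
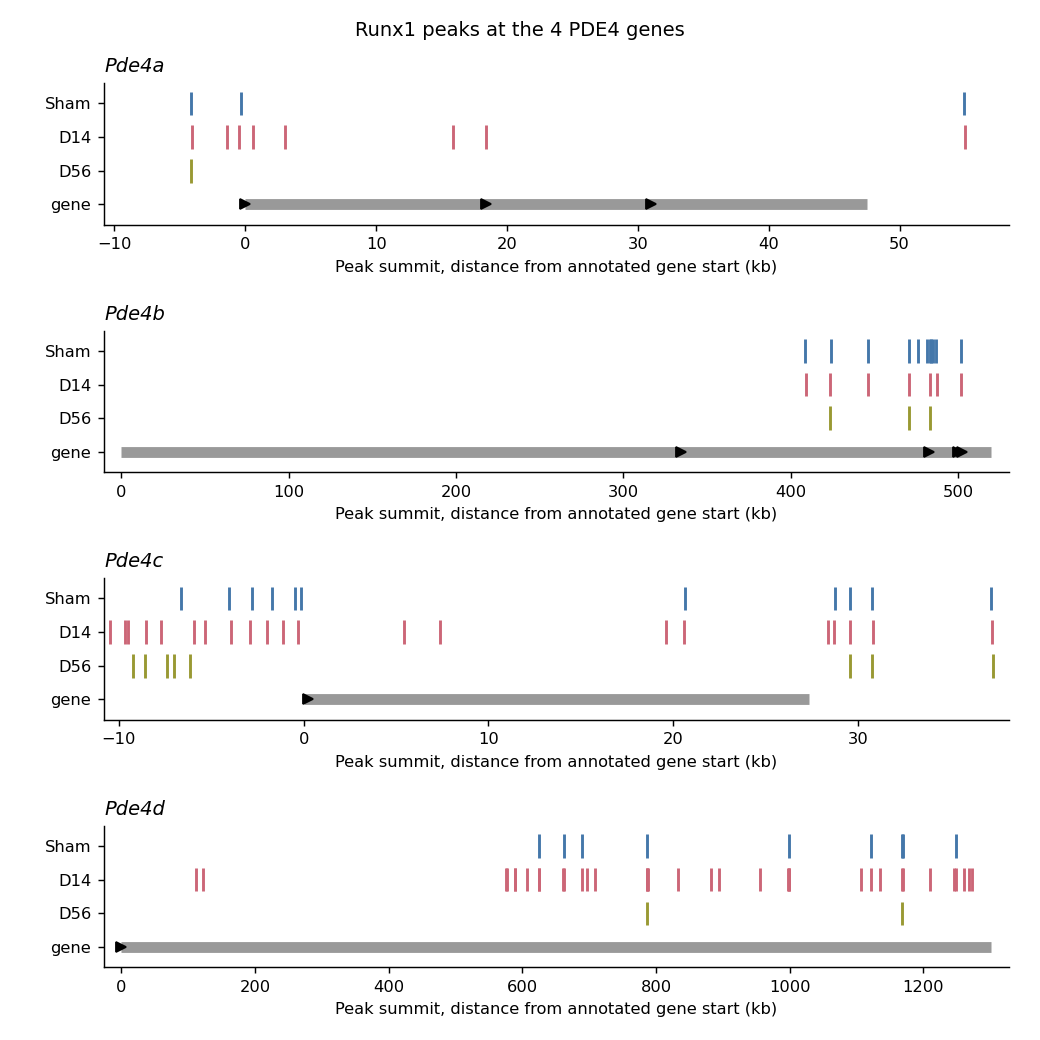
Summit of each Runx1 peak along the 4 PDE4 genes, as distance from the annotated gene start in kb (horizontal axis), in the sham, D14 and D56 libraries; the grey bar is the gene body and the black arrowheads are the starts of the RefSeq promoter windows. The peaks of Pde4b lay in the last part of the gene and those of Pde4d mostly in its second part, while those of Pde4a and Pde4c lay in and around short genes.

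Pde4b encodes the PDE4 enzyme that is best known for limiting cAMP in inflammatory cells, and mice without it release less tumour necrosis factor after endotoxin. The gene lies at chr4:102087332-102607275 on the plus strand. All its peaks in the 3 libraries were in the gene body. The 11 sham peaks lay between 408 and 502 kb from the gene start, in a stretch of 93.2 kb that begins 78.5% of the way along the gene, and the 7 D14 peaks lay in the same stretch. The 4 Pde4b promoter windows have starts 334, 483, 500 and 503 kb from the gene start, and none lies at it. The annotation used here gives no exons, so exonic and intronic positions were not told apart. Nearest peaks outside the 10 kb flanks were 28.1 kb from the gene in sham, 16.8 kb at D14 and 368 kb at D56.

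In each peak list the authors gave a fold enrichment, the ratio of the ChIP pileup at the summit to the local background, and the pileup itself, the height of stacked fragments after the larger of ChIP and input was scaled to the smaller. Both were made for each library apart, so the values below describe a peak within its own list and are not compared in size across libraries. Pde4b held 3 regions called in all 3 libraries. The region with the highest sham fold, chr4:102510819-102511464, had a fold of 8.49 in sham, 6.07 in D14 and 3.70 in D56, with pileups of 58, 65 and 24. The region chr4:102557818-102558257 had a fold of 5.79 in sham, 7.49 in D14 and 5.27 in D56. The third, chr4:102569913-102570754, reached over the start whose promoter sequence is printed. It had a fold of 5.48 in sham, 8.96 in D14 and 5.60 in D56, and its summits lay 298, 417 and 350 bp downstream of that start. The D56 peak began 63 bp beyond the printed bases, so the window itself was met in sham and at D14 and not at D56.

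Pde4b regions called at D14 and in sham were 3 more. The strongest of the gene in the D14 list, chr4:102574261-102574657, had a fold of 9.99 at D14 and 6.54 in sham. The region chr4:102533269-102533522 had 5.47 at D14 and 7.41 in sham, with summits 1 bp apart. The region chr4:102588806-102588990 had 5.40 at D14 and 4.34 in sham, and its peaks ended 623 bp (D14) and 603 bp (sham) before the window of the fourth promoter. Across the 6 Pde4b regions called at D14 and in sham, summits were 1 to 119 bp apart.

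The 5 Pde4b regions called in sham alone were 45.5% of its 11 sham peaks (95% Wilson interval 21.3 to 72.0%), against 8.31% of all sham peaks without a D14 overlap. With a fold of 5 or more in every list, 2 of its 7 sham peaks had no D14 overlap, against 8.59% of all sham peaks, and in lists of equal length 5 of 7, against 24.97%. The latter 5 include chr4:102510819-102511464, chr4:102533269-102533522 and chr4:102557818-102558257, which D14 peaks overlap in the full lists. Those D14 peaks had a −log10 p of 31.0, 30.4 and 20.5, below the lowest D14 value kept, 35.8. Wilson intervals here cover counting error only, and neighbouring peaks of a gene are not independent. Pde4b was also chosen with a sham-only peak already noted, so its share is a description and tests nothing. The strongest sham-only region was chr4:102563304-102563616, with a fold of 7.11 and a pileup of 33, and the nearest D14 peak was 5.11 kb away. The region chr4:102495557-102495805 had a fold of 6.21 and a pileup of 34. It was 660 bp from the 1 Pde4b peak called at D14 alone, chr4:102496465-102496603, which had a fold of 2.98 and a pileup of 16. The remaining sham-only regions lay around the printed Pde4b start, with summits at -1210, 849 and 2230 bp relative to it. Their folds were 4.10, 3.45 and 4.24, and their gaps to the nearest D14 peak were 1.03 kb, 93 bp and 1.42 kb. The 2 sham-only peaks nearest upstream of this start met the lncRNA gene Gm52667 (chr4:102560462-102569426, minus strand), which was met by 0 peaks at D14 and 0 at D56.

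**Figure D3:**
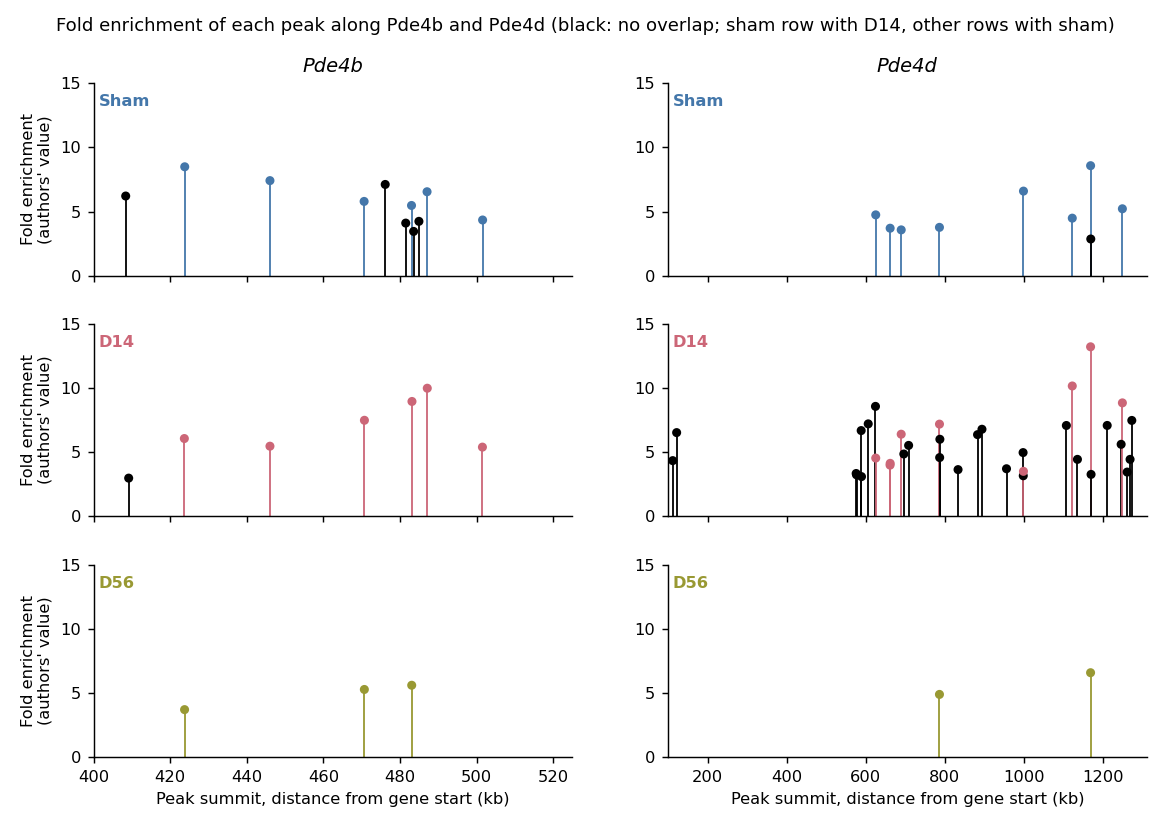
Fold enrichment given by the authors (vertical axis, ratio to the local background) for each peak along Pde4b and Pde4d, by distance of the summit from the gene start in kb, in sham, D14 and D56. Black marks peaks without an overlap, which is with D14 in the sham row and with sham in the D14 and D56 rows; 5 of 11 sham peaks of Pde4b and 26 of 35 D14 peaks of Pde4d are black.

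Pde4b and Pde4d are among the 226 protein-coding genes of 500 kb or longer. In that set the median number of peaks was 1 in sham, 5 in D14 and 0 in D56. Pde4b was the 1 gene of the 226 with fewer peaks at D14 than in sham, while 189 had more and 36 had equal numbers, 28 of these with no peak in either library. By density it ranked 71st at D14 with 1.30 peaks per 100 kb and 6th in sham with 2.04. Pde4d ranked 27th at D14 with 2.65 peaks per 100 kb and 41st in sham with 0.681. Its 35 D14 peaks were reached or passed by 8 genes of the set, itself included, and the highest number was 44. The place of Pde4b in this set depended on the strength required of a peak. With a fold of 5 or more in every list 3 of the 226 genes had fewer D14 than sham peaks, with a −log10 q of 5 or more 2, and with lists of equal length 47.

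**Figure D4:**
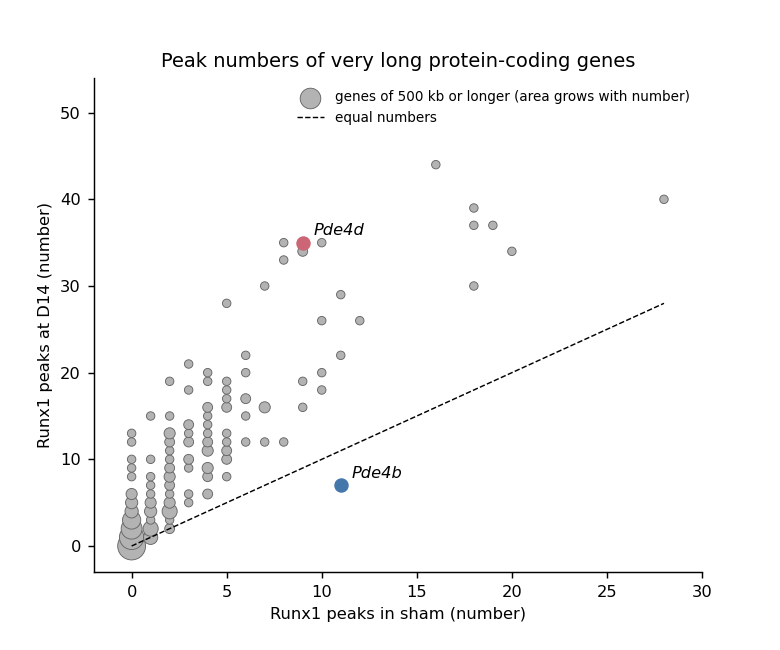
Number of Runx1 peaks at D14 (vertical axis) against the number in sham (horizontal axis) for the 226 protein-coding genes of 500 kb or longer; the area of a grey circle grows with the number of genes at that point, and the dashed line marks equal numbers. Pde4b, with 7 peaks at D14 and 11 in sham, is the gene below the line, and Pde4d, with 35 and 9, lies among the genes with most D14 peaks.

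Pde4d encodes the PDE4 enzyme that β-arrestins bring to active receptors, where it ends the local cAMP signal, and in mice it is needed for muscarinic contraction of the airway. The gene lies at chr13:108654177-109955969 on the plus strand. All its peaks were in the gene body, and none was at the annotated start. RefSeq gives Pde4d 1 promoter window, at that start, so starts of other isoforms within the gene were not checked. The peak nearest to that promoter window was 50093 bp away at D14 and 337454 bp away in sham, in both cases upstream of the gene. Of the D14 peaks, 2 lay 112 and 122 kb into the gene. A gap of 454 kb without a D14 peak followed, and then 33 peaks lay in the 696.8 kb from 576 to 1273 kb. In that stretch the density was 4.74 peaks per 100 kb at D14, 1.29 in sham (9 peaks) and 0.287 at D56 (2 peaks).

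Of the 35 D14 peaks of Pde4d, 26 had no sham overlap, which is 74.3% (57.9 to 85.8%), against 58.9% of all D14 peaks. Pde4d was chosen with D14 gains already noted, so this share is a description and tests nothing. The 26 without an overlap had a median fold of 4.92 and the 9 with an overlap 6.41. In the whole D14 list the medians were 4.75 without a sham overlap and 9.50 with one. The D14-only peaks were not all beside a sham peak, since 6 of the 26 lay within 1 kb of one and the median gap was 18715 bp. With a fold of 5 or more in both lists, 15 of 17 D14 peaks of Pde4d (88.2%) had no sham overlap, against 64.3% of all D14 peaks. With lists of equal length it was 0 of 2, against 25.1%. Leaving Pde4c out, an alternative chosen after seeing the data, 64.0% of the D14 peaks of the family had no sham overlap, against 52.1% (40.7 to 63.3%) with it.

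The strongest Pde4d region at D14 was chr13:109822255-109822755, called in all 3 libraries with a fold of 8.57 in sham, 13.2 in D14 and 6.58 in D56 and pileups of 61, 97 and 25. Its summits were 79 bp apart between D14 and sham and 3 bp apart between D56 and D14. A sham-only peak of fold 2.86, chr13:109822966-109823188, lay 211 bp from its D14 peak. The other region called in all libraries, chr13:109440429-109440685, had a fold of 3.77 in sham, 7.19 in D14 and 4.89 in D56, with pileups of 17, 43 and 13. It lies by the start of the lncRNA gene Gm32703 (chr13:109425166-109441011, minus strand), and a further D14-only peak, chr13:109440900-109441140, with a fold of 4.59, had its summit at -16 bp relative to that start.

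Pde4d regions called at D14 and in sham were 6. The region chr13:109776106-109776438 had a fold of 10.2 at D14 and 4.49 in sham, with pileups of 70 and 34 and summits 1 bp apart. The region chr13:109902671-109903433 had a fold of 8.85 at D14 and 5.22 in sham. Its D14 peak ended 376 bp from the miRNA gene Mir1904, and its sham peak 379 bp from it. The region chr13:109652775-109653024 had a fold of 3.51 at D14 and 6.59 in sham. The others had folds of 4.55 at D14 and 4.74 in sham at chr13:109279273-109279647, 6.41 and 3.57 at chr13:109343699-109343927, and 4.14 and 3.70 at chr13:109315587-109316046, where 2 D14 peaks met 1 sham peak.

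Among the 10 Pde4d regions with the highest D14 fold, 6 were called at D14 alone. The strongest was chr13:109278525-109278966, with a fold of 8.57 and a pileup of 55. The next was chr13:109926523-109926896, with a fold of 7.48 and a pileup of 51, the last peak of the gene. The region chr13:109260260-109260734 had a fold of 7.21, chr13:109864360-109864760 had 7.09, chr13:109761188-109761459 had 7.09 and chr13:109547837-109548044 had 6.79. The folds of all 35 D14 peaks ran from 3.10 to 13.2 with a median of 4.97, below the median of 5.68 over all D14 peaks. The 9 sham folds ran from 2.86 to 8.57 with a median of 4.49, against 5.07 over all sham peaks.

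Pde4a encodes a PDE4 enzyme with long and short forms. The gene lies at chr9:21165700-21213248 on the plus strand. The region called in all 3 libraries, chr9:21161186-21161849, lay upstream of the gene start within the lncRNA gene Gm36118, with a fold of 2.64 in sham, 11.4 in D14 and 4.05 in D56 and pileups of 43, 101 and 23. Within its list the peak stood at percentile 1.16 by fold in sham, 82.6 in D14 and 5.74 in D56. The region chr9:21164905-21165593 at the upstream printed promoter had a fold of 7.33 at D14 and 3.87 in sham, with summits at -517 and -376 bp relative to the start. The antisense gene Gm36118 begins at position 21165668 on the minus strand, so this region lies inside that gene as well. The internal promoter was met by a D14-only peak, chr9:21183963-21184259, with a fold of 4.62 and a summit at -33 bp.

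The other D14-only regions of Pde4a were chr9:21164199-21164417 with a fold of 5.64, chr9:21166116-21166387 with 3.90, chr9:21168429-21169229 with 4.35 and chr9:21181393-21181773 with 4.87. The gene body held 4 peaks at D14 and 0 in sham. The region chr9:21220482-21220785, 7.28 kb beyond the gene end at D14 and 7.23 kb in sham, had a fold of 7.37 at D14 and 3.17 in sham. At Pde4a 5 of 8 D14 peaks (62.5%) had no sham overlap, close to the 58.9% of all D14 peaks.

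Pde4c encodes a PDE4 enzyme that has been found in the primary cilium of mouse kidney cells. The gene lies at chr8:70723835-70751186 on the plus strand with other genes close to both ends, and its gene body held 1 peak in sham, 4 in D14 and 0 in D56. The upstream flank held 6 peaks in sham, 12 in D14 and 5 in D56, and the downstream flank 4, 5 and 3. Without peaks that met another protein-coding gene, an alternative chosen after seeing the data, the family as a whole had 28 peaks in sham, 59 in D14 and 7 in D56. The strongest 2 regions of the locus lay at the starts of other genes. The region chr8:70754332-70754932 at the start of Rab3a, a GTPase of secretory vesicles, had a fold of 6.32 in sham, 20.5 in D14 and 8.98 in D56. This D14 fold was the highest of any member and stood at percentile 95.3 of the D14 list. The region chr8:70760547-70761434 at the start of Mpv17l2, a mitochondrial protein gene, had a fold of 7.75 in sham, 15.3 in D14 and 10.7 in D56.

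The upstream flank of Pde4c held a broad site that the 3 lists divide differently. In the 5534 bp region chr8:70713275-70718808, over Iqcn and Gm3336, sham had 1 peak of 5257 bp, D14 had 7 peaks and D56 had 5. The sham peak stood at percentile 99.98 of the sham list by length. Counted as regions, Pde4c had 15, of which 5 were called at D14 alone, 5 at D14 and in sham, 4 in all 3 libraries and 1 in sham alone. The sham-only region, chr8:70721970-70722229, had a fold of 4.10 and lay 54 bp from a D14 peak. Just before the promoter, chr8:70723270-70723778 held 1 D14 peak of fold 2.92 and 2 sham peaks of fold 3.37 and 3.28, which ended 207 bp (D14) and 36 bp (sham) before the printed bases. Within the gene body, chr8:70744283-70744609 had a fold of 7.09 at D14 and 3.63 in sham, and the 3 other D14 peaks, all without a sham overlap, had folds of 3.48 to 3.58.

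The rest of the Pde4c regions lay in the flanks. Downstream, chr8:70753191-70753734 had a fold of 6.25 in sham, 6.82 in D14 and 5.51 in D56, and chr8:70751969-70752872 had up to 3.80 at D14 and 4.13 in sham. Upstream, chr8:70719676-70720329 had 3.57 at D14 and 3.50 in sham, and chr8:70720752-70721060 had 2.67 at D14 and 2.94 in sham. Peaks just inside the 10 kb rule at Pde4c lay 9.86 kb away at D14 (fold 3.03), 9.63 kb at D56 (10.7) and 9.58 kb in sham (7.75). Those just outside lay 10.7 kb away at D14 (4.71), 10.0 kb at D56 (5.00) and 10.6 kb in sham (3.98). At Pde4a the nearest peak outside was 11.6 kb away at D14, 15.6 kb at D56 and 11.6 kb in sham.

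Of the 71 D14 peaks of the family, 58 had no D56 overlap, which is 81.7% (71.2 to 89.0%), against 74.4% of all D14 peaks. In lists of equal length it was 2 of 7 (28.6%), against 23.1% of all D14 peaks. At Pde4d it was 33 of 35 (94.3%, 81.4 to 98.4%), and at Pde4b 4 of 7. Among the 37 that lacked a sham overlap, 0 had a D56 overlap, against 1.45% over the genome. Among the 34 that had one, 13 also had a D56 overlap (38.2%), against 60.2% over the genome. The 14 D56 peaks of the family all overlapped a sham peak, while 3.59% of all D56 peaks did not. All but 1, a peak upstream of Pde4c, overlapped a D14 peak, and 0.613% of all D56 peaks did not. Set against sham, 24 of the 34 sham peaks had no D56 overlap (70.6%, 53.8 to 83.2%), against 44.3% of all sham peaks. The 34 sham peaks had a median fold of 4.29, against 5.07 over all sham peaks. Over all sham peaks the median fold was 4.22 without a D56 overlap and 6.44 with one. D56 had the shallowest input, 19949187 tags, and the parts of depth and of peak strength in these numbers were not tested. The intervals cover counting error only, and neighbouring peaks of a gene are not independent.

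Genes of like length (within 20%) were ranked by the distance between square roots of their peak numbers in the 3 libraries, so that likeness means similar numbers over 3 libraries and nothing more. For Pde4a there were 1875 candidates. The 3 named, Arfgap3, Ston1 and Unc13a, had the same numbers of 3 in sham, 8 in D14 and 1 in D56, a distance of 0. How many of the 1875 had these numbers was not counted. For Pde4d the nearest of 41 candidates was Auts2 (distance 1.18), with 7 peaks in sham, 30 in D14 and 6 in D56, then Asic2 with 5, 18 and 3 and Prkg1 with 6, 17 and 2. For Pde4b the nearest of 176 were Adgrv1 (distance 1.00) with 8, 12 and 2 peaks, Rgs6 with 7, 12 and 4, and Cpq with 5, 8 and 3, and all of them had more peaks at D14 than in sham. For Pde4c the nearest of 2496 were Csrp1 (distance 0.977) with 9, 15 and 5, Trim7 with 7, 15 and 7, and Loxl1 with 10, 13 and 6.

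The other genes of cAMP signalling were set beside the family as lists chosen with earlier results of these data known. For scale, 60.3% of all protein-coding genes had a peak in sham, 73.3% in D14 and 53.7% in D56. Of all D14 peaks, 58.9% had no sham overlap. Among the 12 other phosphodiesterases that hydrolyse cAMP, 9 had a peak in sham, 12 in D14 and 7 in D56, and 54 of their 78 D14 peaks (69.2%, 58.3 to 78.4%) had no sham overlap. Their highest D14 folds were 30.3 at Pde7a, 22.2 at Pde10a and 19.0 at Pde8a. The highest of the PDE4 genes were 20.5 at Pde4c, in its flank at the start of Rab3a, and 13.2 at Pde4d. The 5 phosphodiesterases specific for cGMP had 16 D14 peaks, 8 of them without a sham overlap, and their highest folds were 18.3 at Pde6a, 15.1 at Pde9a and 13.7 at Pde6b. None of the genes in either of these other phosphodiesterase lists had fewer peaks at D14 than in sham.

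Upstream of PDE4, the Gs alpha gene and the adenylyl cyclases, which make cAMP, had peaks at 6 of 10 genes in sham, 10 in D14 and 5 in D56. Of their 68 D14 peaks, 73.5% had no sham overlap, against 58.9% of all D14 peaks. Adcy9 had the highest D14 fold of them at 19.1, before Adcy2 at 16.9 and Adcy7 at 16.3. The 11 Gs-coupled receptors had 34 D14 peaks, 76.5% of them without a sham overlap, with D14 folds of 14.0 at the prostaglandin receptor gene Ptger4 and 10.1 at Vipr2, a receptor gene for vasoactive intestinal peptide.

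Downstream of cAMP, all 14 effector genes had a peak in every library, against 60.3% of all protein-coding genes in sham, 73.3% in D14 and 53.7% in D56. Of their 69 D14 peaks, 50.7% had no sham overlap, against 58.9% of all D14 peaks. Prkaca, the PKA catalytic subunit, had a D14 fold of 40.8, the repressor gene Crem 34.8 and the PKA regulatory subunit gene Prkar1b 26.4. Crem had 3 peaks at D14 and 5 in sham, and 1 of the 5 had no D14 overlap. Over all sham peaks that share was 8.31%. The 13 PKA anchors and PDE4 partners had 69 D14 peaks, 63.8% without a sham overlap, with folds of 28.4 at Akap11 and 21.5 at Akap1. The 9 cAMP-induced genes had the lowest share, with 27 of 77 D14 peaks (35.1%, 25.3 to 46.2%) without a sham overlap. Their highest D14 folds were 21.4 at Nr4a1, 21.3 at Nr4a2 and 19.8 at Nr4a3, and Per1 (6 peaks at D14, 7 in sham) and Nr4a2 (7 and 8) had fewer peaks at D14. At Per1 and at Nr4a2, 2 sham peaks each had no D14 overlap. These shares have no test, since each rests on 1 library per condition.

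**Figure D5:**
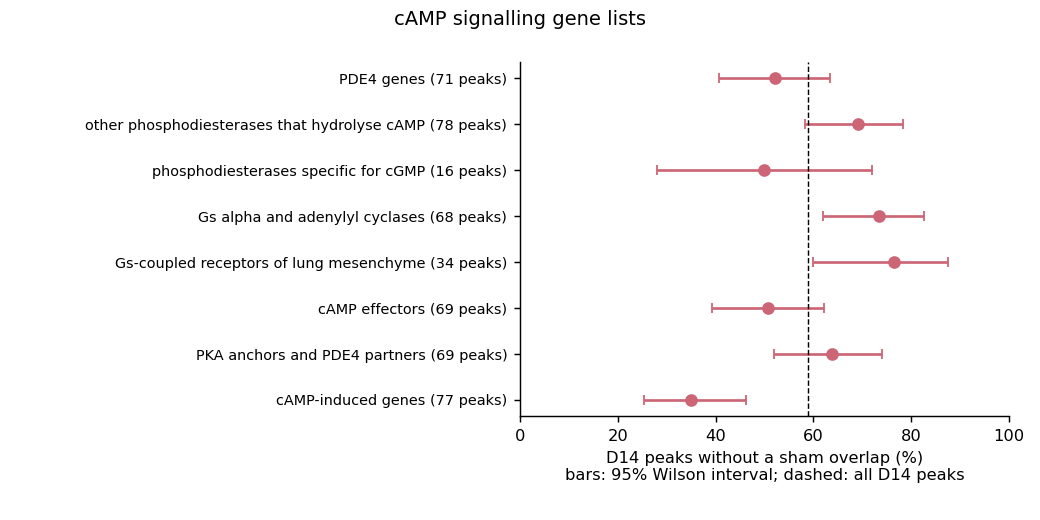
Share of D14 Runx1 peaks without a sham overlap (horizontal axis, percent) for the PDE4 genes and 7 other lists of cAMP signalling genes, with 95% Wilson intervals that cover counting error only; the dashed line is the share over all D14 peaks, 58.9%. The PDE4 genes stood at 52.1% and the cAMP-induced genes lowest at 35.1%.

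Peak lists do not measure expression, so the labelled cell type could be checked only by where peaks lay. Of 8 fibroblast marker genes, 7 had a peak in each library and Lum had none in any. Of 4 endothelial markers, 3 had a peak in sham, 4 in D14 and 3 in D56. Of 4 myeloid markers it was 1, 3 and 1, of 4 epithelial markers 1, 3 and 0, and of 3 lymphocyte markers 1 in each. Over all protein-coding genes the share with a peak within 10 kb was 60.3% in sham, 73.3% in D14 and 53.7% in D56. A peak near a gene shows neither its expression nor its cell type, and the part of other cells in the PDE4 peaks was not tested.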

How the data were processed

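The series held 6 libraries, 3 Runx1 ChIP and 3 inputs, grouped by their titles. BWA, SAMtools and MACS2 were used with build mm10, per the submitters' processing notes. Each ChIP library was run through MACS 2.0.10.20120913 with its own input as the background, per the file headers (q 0.01, effective genome size 1.87 Gb, background windows of 1 and 10 kb, larger data set scaled to the smaller), and nothing was pooled. The deposited lists give, per the file headers, 1-based positions, a pileup signal, p- and q-values as −log10, and the fold enrichment, a ratio to the local background. The lowest pileup listed was 14 in sham, 13 in D14 and 10 in D56, and 7 sham and 15 D14 mitochondrial peaks were left out.

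Here peaks were assigned to RefSeq genes (GRCm38.p6) with 10 kb flanks and compared by overlaps of 1 bp or more, with Python 3.11.15, pandas 2.3.3 and scipy 1.17.1. Counting steps were tested on simulated data. No test between conditions was possible with 1 library each. Members and gene lists were chosen with earlier results of these data known. Named regions were all regions of a member called in the sham or D56 list and, for D14, all for a member with up to 10 and otherwise the 10 with the highest fold. From each cAMP list the 3 genes with the highest D14 fold were named, and for each member with 5 or more D14 peaks the 3 genes of like length nearest in peak numbers. Values of 2 list genes that this rule takes are not reported here. Genes with fewer D14 than sham peaks were named after their values were seen. Alternatives changed the flank, the peak threshold, the list length and the overlap rule.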

Additional observations from a re-analysis of the deposited data

How the results depend on the processing

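The number of PDE4 peaks in sham, 34, was 21 in the gene bodies alone, 64 with 50 kb flanks, 14 with a fold of 5 or more and 14 in lists of equal length. The 71 D14 peaks became 32 with a fold of 5 or more and 7 in lists of equal length. The 14 D56 peaks became 5 in the gene bodies alone, 35 with 50 kb flanks, 8 with a −log10 q of 5 or more, 6 with a fold of 5 or more and 7 without peaks that meet another protein-coding gene, the last an alternative chosen after seeing the data. The share of D14 peaks without a sham overlap was 52.1%, against 58.9% over all D14 peaks. It was 65.6% with a fold of 5 or more (64.3% over all D14 peaks) and 14.3% in lists of equal length (25.1% over all). It was 69.0% with a reciprocal overlap of 50% and 64.8% with summits within 200 bp. For these overlap rules the share over all D14 peaks was not computed. A reciprocal overlap of 50% is stricter for every peak and can only raise such a share. Without Pde4c, also chosen after seeing the data, it was 64.0%. The share without a D56 overlap, 81.7%, was 28.6% in lists of equal length (23.1% over all). The 7 sham peaks without a D14 overlap were 3 with a fold of 5 or more and 12 with a reciprocal overlap of 50%. For the reciprocal rule the share over all sham peaks was not computed. The D14 minus sham number of peaks changed sign in lists of equal length at Pde4d, where it was -1 against 26, and at Pde4c, where it was -2 against 10. At Pde4b it was -4 and lay between -1 and -5 in the 8 alternatives run. Some of these could not change it, since all Pde4b peaks lay in the gene body and met no other protein-coding gene. These were the gene bodies alone and the lists without peaks that meet another protein-coding gene. Lists of equal length keep 15009 peaks each, which removes most D14 peaks by construction. The causes of the other changes were not tested. No paired analysis was possible because each condition had 1 ChIP library and the result comes from no test. Leaving out a replicate was likewise not possible. Depth differs between libraries, and the fewest input tags were at D56, so an uncalled D56 peak is a peak not detected at that depth.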
